A study of Mus musculus with 6 samples.

Results

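A set of 9 genes that mark the alveolar macrophage was followed through 6 mouse lung RNA-seq libraries. The genes were Csf2ra, Siglecf, Mrc1, Marco, Fabp1, Ear1, Ear2, Ctsk and Krt79, chosen by symbol, and all 9 were found among the 21900 genes of the deposited table. The libraries comprise 3 labelled Cyp1b1 knockout and 3 labelled wild type, with 2 females (replicates 1 and 2) and 1 male (replicate 3) under each label, numbered here in the order of deposit, and every mouse had eaten a high fat diet, called a western diet in the title, for 10 weeks. CYP1B1 is a cytochrome P450 that metabolises polycyclic hydrocarbons, retinoids, fatty acids and steroids, and the stated question was the effect of its loss in the lung under that diet. The sources used here give neither strain, age nor knockout allele. Nothing in the labels states that the libraries came from separate animals, and p-values therefore measure only how these libraries scatter, which may be technical.

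Cyp1b1 itself (chr17:79701537-79715061, minus strand) went against the labels. It was at 51.2, 56.1 and 48.4 CPM (reads of a gene per 1000000 reads assigned to genes) in labelled knockout 1, 2 and 3, against 12.5, 19.04 and 18.5 CPM in labelled wild type 1, 2 and 3 (log2 fold change 1.63, SE 0.18, limma adjusted p = 0.0588, and from 0.0197 to 0.683 over the alternatives). A gene-level value cannot tell reads of an intact transcript from those of a disrupted one. The groups are therefore called "labelled knockout" and "labelled wild type", and each direction rests on these labels. The libraries held between 20.2 and 27.6 M (1000000) assigned reads, read from the smallest step between low values. A floor for counting error alone, set at 3 reads, lay between 0.109 and 0.148 CPM, and 0 of the 9 genes fell below it in any library.

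Alveolar macrophages live on the air side of the alveolus, where they take up surfactant, particles and microbes. They arise from fetal monocytes that mature around birth under GM-CSF made by the alveolar epithelium, and GM-CSF and TGF-beta signalling with the transcription factors PU.1 and PPAR-gamma keep their identity. In the mouse they are told from interstitial macrophages of the lung wall by the sialic acid receptor Siglec-F and the integrin CD11c, and by low CX3CR1 and complement C1q. Csf2ra encodes the GM-CSF-binding chain of the GM-CSF receptor. Siglecf, Mrc1 (the mannose receptor) and Marco (a scavenger receptor for particles and bacteria) encode surface receptors. Ear1 and Ear2 encode eosinophil-associated ribonucleases, Fabp1 a fatty acid binding protein, Ctsk the lysosomal protease cathepsin K, and Krt79 a keratin. Several are also made elsewhere: Siglecf and the Ear genes in eosinophils, Mrc1 in interstitial macrophages and lymphatic endothelium, Ctsk in fibroblasts and osteoclasts, Csf2ra in monocytes, neutrophils and dendritic cells, Fabp1 in liver and gut, and Krt79 in skin.

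Ear1 and Ear2 are near copies of each other, which bears on how far their reads can be told apart. In GENCODE M21 on GRCm38, the assembly that mm10 also names, Ear1 (ENSMUSG00000072601) lies at chr14:43818765-43875517 on the minus strand and Ear2 (ENSMUSG00000072596) at chr14:44102654-44103534 on the plus strand. Their coding sequences, of 468 and 471 bases, were identical at 95.1% of aligned positions. The 90 coding bases with the most differences between them, bases 81 to 170 of each, are shown 5′ to 3′ with the 8 differing bases in capitals.
Ear1, chr14:43819240-43819329, minus strand: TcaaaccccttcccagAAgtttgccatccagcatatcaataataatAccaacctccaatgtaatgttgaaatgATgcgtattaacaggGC
Ear2, chr14:44102967-44103056, plus strand: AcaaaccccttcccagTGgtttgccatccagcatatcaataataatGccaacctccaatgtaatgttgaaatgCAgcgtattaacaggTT
Of all 50-base windows of the Ear1 transcript 23.8% also occur in the Ear2 transcript, and 0% of its 100-base windows do. A further copy, Ear10, was 97.0% identical to Ear2 over the coding sequence and shares 13.9% of the 100-base windows of Ear2; it was not analysed here. Neither the read length nor the handling of reads with several matches is stated in the sources used here, and the Ear1 and Ear2 levels below are uncertain.

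The copies extend into the promoters. The 250 bases before the RefSeq start (GRCm38.p6), printed 5′ to 3′ along the gene's strand, were identical between Ear1 and Ear2 at 97.6% of aligned positions. RefSeq and GENCODE M21 can differ in the start, and the Ear1 window lies inside the gene as GENCODE M21 places it.
Ear1, chr14:43819640-43819889, minus strand: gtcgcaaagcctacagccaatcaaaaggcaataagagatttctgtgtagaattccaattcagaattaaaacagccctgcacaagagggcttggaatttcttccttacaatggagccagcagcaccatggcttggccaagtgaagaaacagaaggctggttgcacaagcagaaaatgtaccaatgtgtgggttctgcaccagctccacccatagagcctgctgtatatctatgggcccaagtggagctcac
Ear2, chr14:44102404-44102653, plus strand: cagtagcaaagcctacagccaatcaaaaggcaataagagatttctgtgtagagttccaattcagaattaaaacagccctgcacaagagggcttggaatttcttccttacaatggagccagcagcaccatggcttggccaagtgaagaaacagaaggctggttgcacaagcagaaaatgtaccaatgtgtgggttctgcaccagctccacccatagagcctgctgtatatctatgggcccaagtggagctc
The promoters of Ctsk and Csf2ra are shown because these 2 genes varied most with the male libraries. Capitals mark GAGGAA or its reverse complement TTCCTC, letters at the core of many sites bound by PU.1, an ETS factor.
Ctsk, chr3:95498960-95499209, plus strand: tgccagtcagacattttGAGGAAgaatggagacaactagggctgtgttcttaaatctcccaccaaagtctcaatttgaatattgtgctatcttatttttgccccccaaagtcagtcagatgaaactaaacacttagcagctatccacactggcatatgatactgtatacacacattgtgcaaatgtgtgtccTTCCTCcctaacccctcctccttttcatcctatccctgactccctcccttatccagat
Csf2ra, chr19:61228419-61228668, minus strand: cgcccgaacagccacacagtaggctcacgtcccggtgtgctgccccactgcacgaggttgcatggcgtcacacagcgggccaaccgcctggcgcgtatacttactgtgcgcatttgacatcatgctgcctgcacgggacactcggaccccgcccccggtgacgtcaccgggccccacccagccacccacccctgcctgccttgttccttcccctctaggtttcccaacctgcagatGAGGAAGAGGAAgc
The letters GAGGAA, searched on both strands, occurred in this window of 6 of the 9 genes (Csf2ra, Ctsk, Fabp1, Marco, Mrc1 and Siglecf) and in 23.1% of 27025 promoters, 1 start per gene. The longer GAGGAAGT, which contains it, occurred in 0 of the 9 and in 2.44% of all promoters. Such a match is a description of letters, not a binding site. The last GAGGAA of the Csf2ra window lies within the gene as GENCODE M21 places it.

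Per length, the Ear2 transcript was the most abundant of the 9. The mean over the 6 libraries, in CPM per kilobase of merged exons, was 57.7 ± 9.53 for Ear2, 18.4 ± 9.96 for Csf2ra, 17.1 ± 3.51 for Ear1, 14.2 ± 7.36 for Ctsk and 9.01 ± 1.23 for Mrc1 (SD, n = 6). Siglecf followed at 3.50 ± 0.63, Marco at 3.40 ± 0.86, Fabp1 at 3.26 ± 2.15 and Krt79 at 2.29 ± 0.56 (SD, n = 6). Ear2 stood above Csf2ra in all 6 libraries without overlap, and Mrc1 above Siglecf likewise. Between the other neighbours in this order the ranges overlapped. Csf2ra and Ear1 were above Mrc1 in all 6 libraries and Siglecf was above Krt79 in all 6, whereas the order of Csf2ra, Ear1 and Ctsk differed between libraries, as did that of Siglecf and Marco. Markers of the wider macrophage group were present beside them: the lysosomal protein gene Cd68 was between 22.7 and 89.4 CPM and the lysozyme gene Lyz2, which alveolar type 2 cells also make, between 3685 and 5805 CPM. The measure is RNA of whole lung, in which fewer cells of a type and less RNA per cell cannot be told apart.

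Among the receptors, Csf2ra was the one that set a single library apart. Csf2ra (ENSMUSG00000059326, chr19:61223957-61228429, minus) had 35.5, 40.7 and 50.3 CPM in labelled knockout 1, 2 and 3, against 40.8, 38.7 and 110 CPM in labelled wild type 1, 2 and 3. The labelled wild type male had 2.77 times the mean of the females of its label, while the 4 females stayed between 35.5 and 40.8 CPM. Siglecf (ENSMUSG00000039013, chr7:43351341-43359531, plus strand) was at 11.9, 10.7 and 9.51 CPM in labelled knockout 1, 2 and 3, against 9.38, 10.4 and 6.66 CPM in labelled wild type 1, 2 and 3. Here the labelled wild type male was the lowest of the 6 libraries, where Csf2ra had its highest value. Mrc1 (ENSMUSG00000026712, chr2:14229392-14332057, plus strand) was at 57.6, 55.9 and 70.6 CPM in labelled knockout 1, 2 and 3, against 48.4, 51.2 and 60.7 CPM in labelled wild type 1, 2 and 3. It varied least of the 9, with a coefficient of variation of 13.7% over the 6 libraries, and both males were above the females of their label. Marco (ENSMUSG00000026390, chr1:120474538-120505024, minus) had 5.20, 5.003 and 8.73 CPM in labelled knockout 1, 2 and 3, against 7.70, 5.04 and 7.56 CPM in labelled wild type 1, 2 and 3. In 3 libraries it lay between 5.003 and 5.20 CPM and in the other 3 between 7.56 and 8.73 CPM, and both labels had libraries at each level.

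The secreted and intracellular members each had their own pattern over the libraries. Ear1 was at 9.54, 11.9 and 13.4 CPM in labelled knockout 1, 2 and 3, against 15.4, 9.59 and 14.9 CPM in labelled wild type 1, 2 and 3. Ear2 was at 40.7, 38.9 and 37.2 CPM in labelled knockout 1, 2 and 3, against 52.9, 33.6 and 45.5 CPM in labelled wild type 1, 2 and 3. Both Ear genes were highest in labelled wild type 1, and the labels overlapped for each. Fabp1 (ENSMUSG00000054422, chr6:71199827-71205023, plus strand) was the lowest of the 9 in CPM, at 1.52, 1.02 and 1.25 CPM in labelled knockout 1, 2 and 3, against 4.19, 1.63 and 1.20 CPM in labelled wild type 1, 2 and 3. Its high value came from labelled wild type 1 alone. In that library the hepatocyte gene Alb was at 0.46 CPM and Apoa1 had no read. Alb was highest, at 9.15 CPM, in labelled wild type 2. The 7 liver and gut markers analysed summed to 11.1 CPM in labelled wild type 1 and to between 10.1 and 33.7 CPM over all libraries. The part of liver or gut cells in the Fabp1 values was not tested. Krt79 (ENSMUSG00000061397, chr15:101929332-101940324, minus) had 10.2, 11.4 and 13.1 CPM in labelled knockout 1, 2 and 3, against 10.4, 13.8 and 6.32 CPM in labelled wild type 1, 2 and 3. The labelled wild type male was again lowest, at 0.52 times the mean of the females of its label. Markers of stratified epithelium, which also makes Krt79, were low beside it, with 7 of them summing to between 2.14 and 7.11 CPM per library. Krt14 was at no more than 0.384 CPM and Krt5 at no more than 1.78 CPM in any library. The part of such epithelium in the Krt79 values was not tested.

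Ctsk split the 2 males to either side of the females. Ctsk (ENSMUSG00000028111, chr3:95499256-95509362, plus strand) was at 21.5, 16.5 and 8.81 CPM in labelled knockout 1, 2 and 3, against 19.1, 20.7 and 42.2 CPM in labelled wild type 1, 2 and 3. The 4 females lay between 16.5 and 21.5 CPM whichever label they carried. The labelled knockout male was below all of them and the labelled wild type male above, a 4.79-fold span between the 2 males. Fibroblasts also make cathepsin K, and 7 of 10 fibroblast markers had their lowest value in the same labelled knockout male. So did 7 of 10 dendritic cell, 7 of 10 alveolar type 2 and 7 of 12 interstitial macrophage markers. The count was 6 of 24 for other alveolar macrophage genes and 1 of 10 for monocyte markers. It was 0 of 10 for neutrophil markers and 0 of 10 for genes shared by macrophages. The share of all genes with their lowest value in this male was not computed. The median log2 level of all genes tested was lowest there too (4.132, against 4.258 to 4.386 in the other libraries). The summed level of the fibroblast markers was from 1383 to 2087 CPM among the labelled knockout, lowest in the male. Among the labelled wild type it was from 1660 to 2044 CPM, again lowest in the male. The part of fibroblasts in the Ctsk values was not tested.

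**Figure D1:**
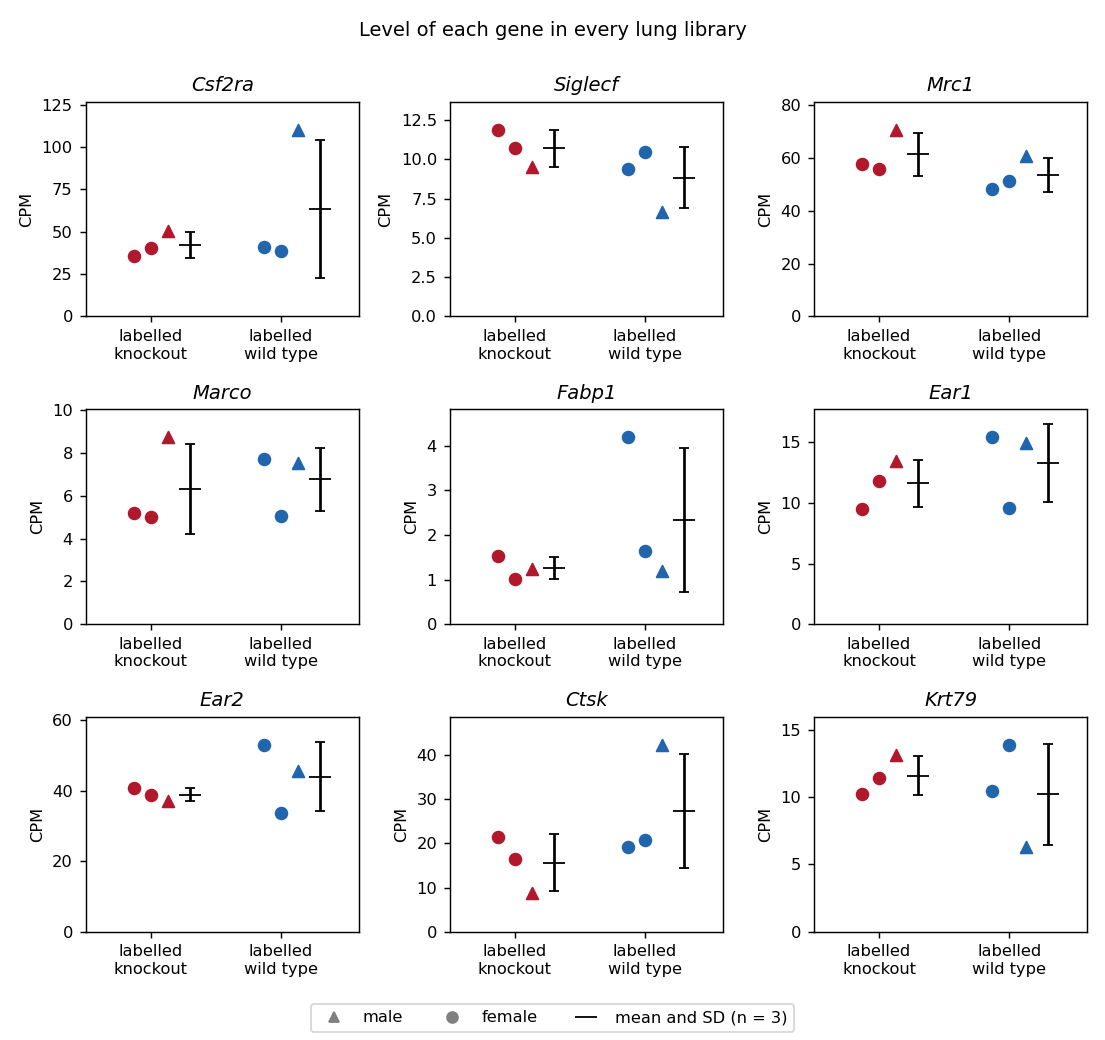
CPM of each of the 9 genes (y axis, from 0) in the labelled knockout (red) and labelled wild type libraries (blue), with triangles for males, circles for females, and the mean with SD (n = 3) beside each group. Csf2ra reaches 110 CPM and Ctsk 42.2 CPM in the labelled wild type male, and the labels overlap in every panel.

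No member separated the genotype labels. Of the 9 genes, 0 passed limma at an adjusted p under 0.05 (0.0115% of the 17382 genes tested did), 0 had an unadjusted p under 0.05 (5.13% of all genes did), and for 0 of 9 did the labels fail to overlap (9.52% of all genes). Of the log2 fold changes, labelled knockout minus labelled wild type on the log2(CPM + 0.5) scale, 3 were above 0 and 6 below, with a median of -0.15 beside -0.06 over all genes tested. Ctsk had the lowest at -0.78 (SE 0.39), with means of 15.6 ± 6.39 CPM for labelled knockout and 27.3 ± 12.9 CPM for labelled wild type (SD, n = 3 each, limma adjusted p = 0.775). Siglecf had the highest at 0.28 (SE 0.19), with means of 10.7 ± 1.18 and 8.82 ± 1.95 CPM in labelled knockout and labelled wild type (SD, n = 3 each, limma adjusted p = 0.775). The limma adjusted p of the 9 ran from 0.775 to 0.917.

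How large a difference these libraries leave room for varied with the gene. The 95% interval of the fold change, labelled knockout over labelled wild type, was, on the log2 scale, narrowest for Mrc1, from 0.973 to 1.35-fold, followed by Ear2, from 0.681 to 1.19-fold, Siglecf, from 0.895 to 1.65-fold, and Csf2ra, from 0.537 to 1.05-fold. It was widest for Fabp1, from 0.357 to 1.30-fold, and Ctsk, from 0.313 to 1.08-fold. Between the females alone the log2 differences were small for Ctsk (-0.08), Csf2ra (-0.06) and Ear2 (-0.08), and the lowest was that of Fabp1 (-0.85), which rests on labelled wild type 1. Without that library the Fabp1 change over the other 5 was -0.14, against -0.55 with it. Over all 6 libraries the changes of Ctsk and Csf2ra were -0.78 and -0.42. With either male left out the sex term takes up the other male, so the fit returns the female differences by construction. Krt79, at 0.23 in all libraries, was at -0.15 between the females.

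**Figure D2:**
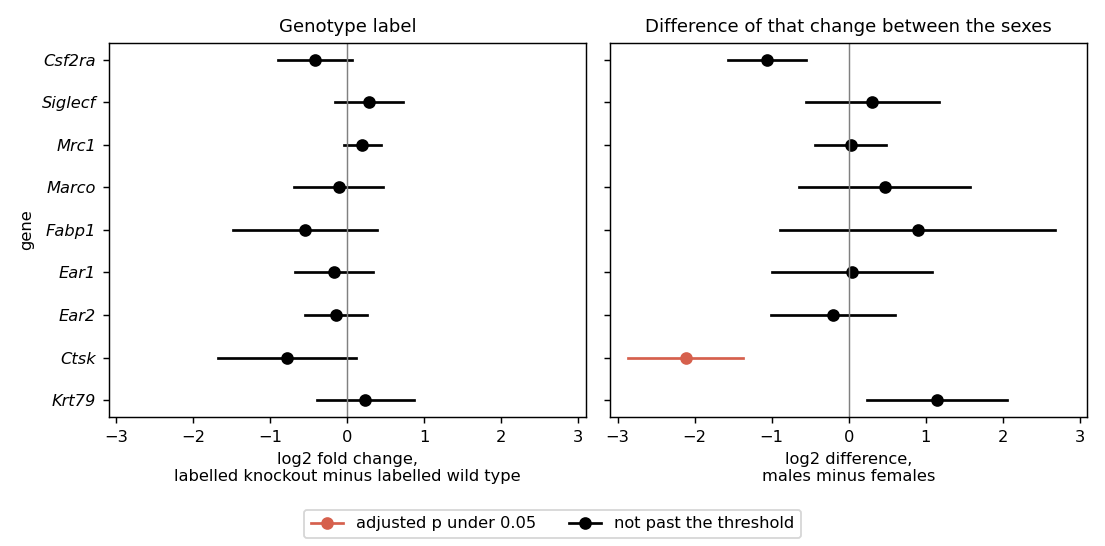
Left, log2 fold change of each gene between the labels with its 95% interval (limma, sex as a term); right, the difference of that change between males and females with its 95% interval. All 9 intervals on the left include 0, while Ctsk on the right lies at -2.12 and is the one gene past the adjusted threshold.

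The 2 males differed from each other in Ctsk more than the females of the labels did. The contrast between the labels was -2.20 log2 units between the males and -0.08 between the females, an interaction of -2.12 (SE 0.32, limma adjusted p = 0.0146, range over the alternatives 0.00676 to 0.149, the highest with no filter on low genes). The interaction was called for 1 of the 9 genes, where 2.54% of all genes tested were called (0.702% positive and 1.84% negative), and 3 of the 9 had an unadjusted p under 0.05 (17.9% of all genes). Its median over all genes was -0.13, and Ctsk kept a value of -1.89 when the library medians were set equal. Csf2ra, at -1.12 between the males and -0.06 between the females, stood next to the threshold with an interaction of -1.06 (SE 0.22, limma adjusted p = 0.0502). Krt79 had the opposite sign at 1.14 (SE 0.40) and did not pass (limma adjusted p = 0.182). The other 6 had values from -0.20 to 0.90 and limma adjusted p of at least 0.598. With 1 male per label, the test takes its spread from the females, and an effect of sex and a single library that stands apart cannot be told apart.

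The sexes did not differ for any member past the threshold. Of the 9, 0 passed limma (0.834% of all genes tested, 0.627% higher and 0.207% lower in males) and 2 had an unadjusted p under 0.05 (15.3% of all genes), Csf2ra and Mrc1. Csf2ra was at 50.3 and 110 CPM in the males, whereas the females had 35.5 to 40.8 CPM (log2 difference, male minus female, 0.93, SE 0.22, limma adjusted p = 0.105). Mrc1 was at 70.6 and 60.7 CPM in the males, whereas the females had 48.4 to 57.6 CPM (0.30, SE 0.11, limma adjusted p = 0.243). For both genes the 2 males lay above the 4 females. The calls depended on single males: without labelled knockout 3, Csf2ra (1.46) and Ctsk (1.06) passed, and without labelled wild type 3 Ctsk passed with the other sign (-1.06).

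Of 24 other genes known from alveolar macrophages, 0 passed limma between the labels (4 with an unadjusted p under 0.05, beside 5.13% of all genes). Between the sexes 1 passed (0.834% of all genes) and in the interaction 4, 2 in each direction (2.54% of all genes). Bhlhe41, a transcription factor that also belongs to the circadian clock, had the smallest p between the labels, at 24.2, 24.0 and 22.8 CPM in labelled knockout 1, 2 and 3, against 37.8, 54.5 and 44.0 CPM in labelled wild type 1, 2 and 3 (log2 fold change -0.91, limma adjusted p = 0.343). The chitinase-like protein gene Chil3 was at 58.4, 64.5 and 231 CPM in labelled knockout 1, 2 and 3, against 279, 224 and 238 CPM in labelled wild type 1, 2 and 3, so that its low values were the 2 females labelled knockout (interaction 1.97, limma adjusted p = 0.00408). Itgax, which encodes CD11c, was at 43.4, 39.01 and 30.3 CPM in labelled knockout 1, 2 and 3, against 43.1, 43.3 and 140 CPM in labelled wild type 1, 2 and 3 (interaction -2.12, limma adjusted p = 0.00233). The fatty acid binding protein gene Fabp5 had the same sign (-2.005, limma adjusted p = 0.00343), with 92.8 CPM in the labelled wild type male. Lpl, which encodes lipoprotein lipase and is also made by adipocytes and heart muscle, had the other sign (1.90, limma adjusted p = 0.00144), with 1030 CPM in the labelled knockout male and from 224 to 295 CPM in the other libraries. The chemokine gene Ccl6 was higher in males (0.99, limma adjusted p = 0.0332). Pparg, the nuclear receptor that alveolar macrophages need, was at 6.90, 11.8 and 8.42 CPM in labelled knockout 1, 2 and 3, against 11.9, 13.3 and 11.2 CPM in labelled wild type 1, 2 and 3 (log2 fold change -0.44, limma adjusted p = 0.775).

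Of the GM-CSF and TGF-beta inputs, 13 genes measured, 0 passed limma between the labels (0 with an unadjusted p under 0.05, beside 5.13% of all genes). Between the sexes 2 passed, higher in males (0.627% of all genes), and in the interaction 0 (5 with an unadjusted p under 0.05, beside 17.9%). Csf2rb, the signalling chain that pairs with Csf2ra, was at 125 and 130 CPM in the labelled knockout and labelled wild type males, whereas the females had 36.9 to 45.3 CPM (log2 difference, male minus female, 1.65, limma adjusted p = 0.00194). Both males thus held high Csf2rb, whereas Csf2ra was high in the labelled wild type male and at 1.32 times the mean of its females in the labelled knockout male. Spi1, which encodes PU.1, was at 88.4 and 101 CPM in those males whereas the females had 27.4 to 47.1 CPM (1.28, limma adjusted p = 0.0410). Csf2, which encodes GM-CSF, was low throughout, at 0.851, 0.906 and 0.819 CPM in labelled knockout 1, 2 and 3, against 2.01, 0.989 and 2.60 CPM in labelled wild type 1, 2 and 3 (log2 fold change -0.74, limma adjusted p = 0.775). The labels did not overlap for 3 of the 13 genes (9.52% of all genes), each lower in labelled knockout: Csf2, the TGF-beta receptor gene Tgfbr1 (64.5 to 73.9 CPM, against 74.3 to 112 CPM in labelled wild type) and the integrin gene Itgb8 (2.03 to 3.67 CPM, against 4.25 to 4.98 CPM in labelled wild type). Csf2, like Pparg, was chosen after its values were seen.

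Genes shared by macrophages rose more in the labelled wild type male than the members did, by the list medians. In that library 2 of the 9 members had their highest value of the 6 libraries, against 8 of the 10 shared genes, 13 of the 24 other alveolar macrophage genes and 25.6% of all genes tested. The share of the members is near that of all genes. Relative to the females of its label the median log2 difference was 0.26 for the members and 0.51 for the other alveolar macrophage genes. It was 1.01 for the genes shared by macrophages and 0.01 over all genes. In the labelled knockout male these medians were, in the same order, 0.27, 0.41, 0.26 and -0.13. In the labelled wild type male Marco, Mrc1, Ear1, Ear2, Ctsk and Csf2ra were above the females of its label (0.11 to 1.46). Siglecf, Krt79 and Fabp1 were below them (-0.90 to -0.54). The protease gene Ctss was at 729 CPM there and from 97.4 to 130.5 CPM in the other libraries, the F4/80 gene Adgre1 at 68.9 CPM and from 17.1 to 21.6 CPM, and Cd68 at 89.4 CPM and from 22.7 to 34.2 CPM. All 3 were called in the interaction (limma adjusted p from 0.00266 to 0.01996). Of the 12 interstitial macrophage markers, 8 were highest in the labelled wild type male and 2 in the labelled knockout male. Complement C1qa, C1qb and C1qc were at 203, 208 and 160 CPM in the labelled wild type male, and no other library passed 37.8 CPM for any of them. Lyve1, a hyaluronan receptor gene also made by lymphatic endothelium, went the other way, with 267 CPM in the labelled knockout male, 154 CPM in the labelled wild type male and from 182 to 237 CPM in the females. In the interaction 5 of these 12 markers were called, 4 negative and 1 positive, beside 2.54% of all genes tested. C1qa, C1qb and C1qc were negative (limma adjusted p from 0.000325 to 0.00144). The positive one was Pf4, which platelets make too (2.40, limma adjusted p = 0.0328). Csf2ra and Ctsk thus had their highest value in the same library as Ctss, Adgre1, Cd68 and the C1q genes, while Siglecf and Krt79 had their lowest there.

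Measured against the genes shared by macrophages, 7 or 8 of the 9 members, depending on the scale, lay below their female means in the labelled wild type male. The geometric mean of those 10 genes was 2.41 times its female mean in the labelled wild type male, and 1.27 times in the labelled knockout male. Divided by it, Csf2ra in the labelled wild type male was at 1.17 and Ctsk at 0.896 times their female means, and the other 7 members lay between 0.227 (Krt79) and 0.550 (Marco). In the labelled knockout male the same ratios were 1.02 for Csf2ra and 0.355 for Ctsk, and between 0.481 (Fabp1) and 1.21 (Marco) for the other 7. This scale was chosen after the values were seen, as the summed level, planned at first, is set mostly by Lyz2. Relative to that sum 7 of the 9 lay below their female means in the labelled wild type male, and Csf2ra (1.85) and Ctsk (1.41) above. Relative to the sum without Lyz2, also chosen after the values were seen, Csf2ra (1.52) and Ctsk (1.16) again lay above and the other 7 below.

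**Figure D3:**
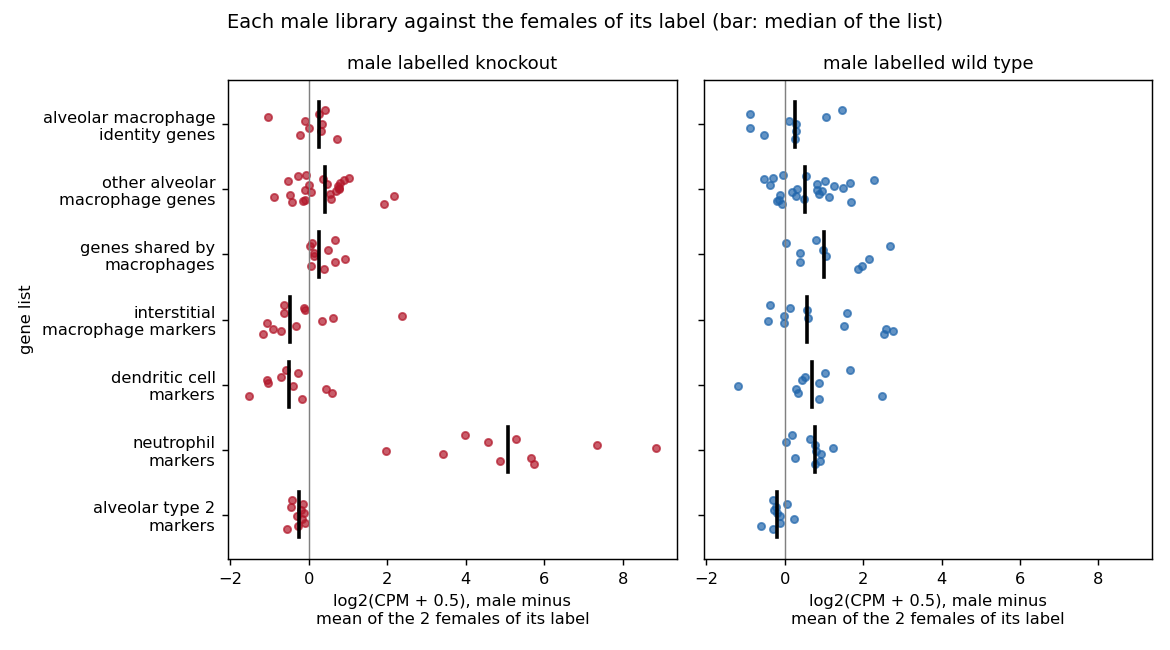
Each point is a gene; the x axis gives log2(CPM + 0.5) in the male minus the mean of the 2 females of its label, for the labelled knockout male (left) and the labelled wild type male (right), and black bars are list medians. Genes shared by macrophages have a median of 1.01 in the labelled wild type male, the 9 identity genes 0.26, and neutrophil markers reach a median of 5.08 in the labelled knockout male.

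Markers of other cells that make some of these genes moved with the 2 males as well. The summed level of 10 neutrophil markers was from 198 to 6347 CPM among the labelled knockout, the highest in the male, and from 227 to 357 CPM among the labelled wild type. The summed level of 10 monocyte markers was from 2085 to 3538 CPM among the labelled knockout, the highest in the male, and from 1988 to 2090 CPM among the labelled wild type. The monocyte genes Ly6c2 (81.1 and 56.0 CPM in the labelled knockout and labelled wild type males, 11.9 to 19.7 CPM in the females) and Ccr2 (107 and 113 CPM, 34.3 to 46.6 CPM in the females) were higher in males (limma adjusted p = 0.00760 and 0.0146), and F13a1 and Ace were called in the interaction with a positive sign. The summed level of 10 dendritic cell markers was from 183 to 213 CPM among the labelled knockout and from 202 to 400 CPM among the labelled wild type, the highest in the male. Of 8 eosinophil markers 6 were matched by symbol in the deposited table, and the other 2 were not analysed. The sum of the 6 was from 16.5 to 24.3 CPM among the labelled knockout and from 14.2 to 50.4 CPM among the labelled wild type. Most of it was Cd300a, which other myeloid cells share; Prg2, which encodes eosinophil major basic protein, was between 0 and 1.84 CPM and Ccr3 at no more than 0.538 CPM. The summed lymphatic endothelial markers were from 280 to 323 CPM among the labelled knockout and from 253 to 326 CPM among the labelled wild type. The part of these cells in the values of Csf2ra, Siglecf, Mrc1 and the Ear genes was not tested. Alveolar type 2 markers, 20134 to 21932 CPM in the females, summed to 15654 CPM in the labelled knockout male and 17397 CPM in the labelled wild type male.

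The 9 genes did not follow one shared course over the libraries. Of their 36 pairs, 19 had a positive Pearson correlation of log2 values over the 6 libraries, with a median of 0.03. The values, which share the same 6 libraries and the 2 males, ran from -0.96 for Siglecf with Csf2ra to 0.83 for Marco with Ear1, and Ear1 with Ear2 was at 0.72. The highest level fell in labelled wild type 1 for 3 genes, in the labelled wild type male for 2 and in the labelled knockout male for 2. Among 16016 other genes with a mean of at least 1 CPM, those most like the average course of the 9 were Bnc1 (r = 0.97), Gm5846 (0.97), Rnf170-ps (0.97), Zdhhc20 (0.96) and Tmx1 (0.96). None of them is in the lists of macrophage genes, and with 6 libraries 40 genes exceeded a correlation of 0.9.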

How the data were processed

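Mouse lung RNA was sequenced in 6 libraries. The authors' deposited table gives CPM per gene, 1 column per library, with 0.0001 added to each value, which was subtracted. Per the submitters' processing notes the build was mm10 and the tools Partek and TopHat2 (no versions or roles given); the sources used here state no annotation, filter or strand setting, so overlapping and near-identical genes can share reads. Between 82.1% and 83.3% of values worth up to 100 reads fell within 0.05 of a whole multiple of the smallest step, too few to recover whole reads for a count test.

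Differences were tested with limma (version 3.58.1, in R 4.3.3) with a variance trend. It was run on log2(CPM + 0.5), which understates changes of low genes, for 17382 genes with a mean of at least 0.5 CPM. Genotype label and sex were additive terms, and a second fit added their interaction. Tests were two-sided, with Benjamini-Hochberg adjustment over all genes tested and a threshold of 0.05. The fit was tested on simulated data. Tables and figures used matplotlib 3.10.9, numpy 2.4.6 and pandas 2.3.3 under Python 3.11.15. Gene positions and merged exon lengths came from GENCODE M21, which holds 99.75% of the gene identifiers; promoters, found for all 9 genes, came from RefSeq. All 9 genes and Cyp1b1 were named. Of the other lists, the rule picked genes past the threshold, else of the smallest p, those of highest level, and defining markers at or under the floor. Not all of these are named: the 8 neutrophil and 2 dendritic cell genes called in the interaction are left out, as are some of highest level. Csf2 and Pparg fall outside that rule. A gene that the rule picked is not reported here. The genes and lists were chosen with earlier results of these data known. Alternatives were the pseudocount, the filter, 2 scalings, robust moderation, no sex term, the 4 females alone and leaving out each library.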

Additional observations from a re-analysis of the deposited data

Results flagged for a closer look

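The contrast of Ctsk between the labels was -2.20 log2 units between the males and -0.08 between the females, an interaction of -2.12 (limma adjusted p = 0.0146). The labelled knockout male had 8.81 CPM and the labelled wild type male 42.2 CPM, while the 4 females had 16.5 to 21.5 CPM. With 1 male per label, an effect of sex and a single library that stands apart cannot be told apart.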

How the results depend on the processing

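No paired analysis was possible because the labels carry no replicate numbers; those used here follow the order of deposit. For the labels, 0 members passed limma in any of the 15 alternatives. Over all genes, 2 passed in the fit reported and 6 with no filter, quantile normalization, median centring or robust moderation, 7 in the 4 females, and 1 to 4 when 1 library was left out. Cyp1b1 passed in the 4 females (log2 fold change 1.76), with median centring (1.73), quantile normalization (1.71), robust moderation (1.63) and no filter (1.63), and had 1.42 to 1.76 without 1 library. Between the sexes 145 genes passed, and 21 to 840 without 1 library; the members past it were 0 to 2. Without labelled knockout 3 these were Ctsk (1.06) and Csf2ra (1.46), and without labelled wild type 3 Ctsk with the opposite sign (-1.06). The lone male then left is assumed to vary like the females. In the interaction 441 genes passed, 0 with no filter (3367 with an unadjusted p under 0.05) and 230 to 577 without 1 female, the lowest without labelled knockout 1; it cannot be fitted without a male. One member, Ctsk, passed, and 10 of 11 alternatives kept it; with no filter 0 members passed (Ctsk adjusted p = 0.149). With a pseudocount of 1, a filter at 2 CPM or robust moderation 2 passed, as Csf2ra joined (limma adjusted p = 0.0454, 0.0484 and 0.0338). The median difference of the members between the labels, -0.02 log2 units in CPM, was 0.25 relative to the summed genes shared by macrophages. It was 0.32 relative to their geometric mean and 0.20 relative to their sum without Lyz2, both chosen after seeing the data. Each shift is that of the divisor alone, because all members of a library are divided by the same number. In the labelled wild type male the divisor was 1.53 (sum), 2.41 (geometric mean) and 1.86 (sum without Lyz2) times its female mean. Why the divisor differed between libraries was not tested. Of 348 values of single members under the alternatives, 18 that were not called changed sign.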
